A study of Mus musculus with 12 samples.

Results

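Milk proteins and the proteins of the milk fat globule were represented by 10 genes, chosen by name for their known part in milk: the casein genes Csn1s1, Csn2 and Csn3, the whey protein genes Wap and Lalba, and the fat globule genes Btn1a1, Xdh, Plin2, Mfge8 and Muc1. Of these, 9 were measured, each by 1 probeset (the set of array probes read as 1 value), among 19938 genes in all. The only probeset for Lalba, which encodes the regulatory subunit of lactose synthase, also lists Trip12, so no value is given for it. No filter on low values was applied, and all 9 entered every test.

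The study hybridised RNA from sorted mammary cells of the mouse to 12 Affymetrix arrays, 3 in each of 4 groups. All cells came from female mice aged 10 to 14 weeks that carried MMTV::Cre, a Cre recombinase driven by the mouse mammary tumour virus promoter, and the mT/mG reporter, with which cells turn green once Cre has acted. The Wnt4-deleted mice were MMTV::Cre+.Wnt4fl/fl.mT/mG and the controls, called WT, were MMTV::Cre+.Wnt4wt/wt.mT/mG. GFP-positive cells were sorted by the surface protein CD24 into a CD24 low fraction, labelled myoepithelial, and a CD24 high fraction, labelled luminal. The number in a sample's title names its array: WT CD24 low 1, 9 and 13, WT CD24 high 2, 10 and 14, Wnt4-deleted CD24 low 3, 11 and 15, and Wnt4-deleted CD24 high 4, 12 and 16. The labels name mammary glands as the source but grafts in the digestion step, and give neither reproductive stage nor the number of mice behind an array. They tie no array to a culture or animal, and p-values therefore reflect only the spread of these arrays, which may in part be technical. Reporter-selected populations of this kind hold only cells in which the MMTV promoter has been active, in them or their forebears.

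Caseins are the main proteins of milk and assemble into micelles, with kappa-casein, the product of Csn3, at their surface. Prolactin, acting through the transcription factor STAT5, drives casein and whey protein genes in alveolar luminal cells, above all in pregnancy and lactation. Milk fat leaves the cell as lipid droplets wrapped in apical membrane, a step in which butyrophilin (Btn1a1), xanthine dehydrogenase (Xdh) and perilipin 2 (Plin2) take part. Mfge8 and Muc1 encode a phosphatidylserine-binding glycoprotein and an apical mucin that are also found on the globule.

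Values are log2 expression on each array, and a difference of 1 is a doubling. The targeted gene, Wnt4, read 7.42, 7.92 and 7.62 on the WT and 6.11, 6.46 and 6.78 on the Wnt4-deleted CD24 high arrays, a difference of -1.20 (SE 0.19, limma adjusted p = 0.416) with no overlap. The sort followed its labels: the mean of 12 general luminal markers was 10.89 to 11.21 on CD24 high and 8.53 to 9.39 on CD24 low arrays, and that of 13 myoepithelial markers was 6.44 to 7.16 and 10.69 to 11.06. Some arrays stood apart on other lists. Endothelial markers averaged 6.44 to 9.41 on CD24 low against 4.84 to 6.22 on CD24 high arrays, fibroblast markers 9.05 and 8.50 on arrays 9 and 11 against 6.15 to 6.89 on the other CD24 low arrays, skeletal muscle markers 7.18 and 8.13 on arrays 1 and 3, and proliferation genes 8.11 on array 4 against 5.71 to 6.48 on the other CD24 high arrays, and 7.69 on array 3 against 5.53 to 6.74 on the other CD24 low arrays. As a guide to dimness, the 1015 olfactory receptor genes had array medians of 3.18 to 3.42 and 95th percentiles of 4.90 to 5.22.

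Several milk genes were higher in CD24 high cells, in either genotype. In WT, 4 of 9 passed the test (Csn3, Btn1a1, Plin2 and Muc1; limma, adjusted p under 0.05 over all genes), all of them higher, where 7.93% of all genes were called higher and 8.21% lower. In Wnt4-deleted mice the 4 called genes were these also, where 8.23% of all genes were called higher and 8.22% lower. With the title-number sets as a replicate block, 3 were called in WT and 6 in Wnt4-deleted cells. With that block 3624 and 3747 of all genes were called, against 3218 and 3278 without it. At an unadjusted limma p under 0.05, without the block, the count was 6 in WT (26.4% of all genes in either direction) and 7 in Wnt4-deleted cells (27.8%). The median difference over the 9 genes was 1.46 in WT and 2.18 in Wnt4-deleted cells, beside 0.02 and 0.01 over all genes. The WT arrays of the fractions did not overlap for 5 of the 9, all higher in CD24 high cells (17.1% of all genes), and the Wnt4-deleted arrays for 6 (15.1%). None was lower without overlap (15.7% and 14.2% of all genes). In sorted bulk RNA, a smaller number of cells expressing a gene and less RNA per cell cannot be told apart.

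**Figure D1:**
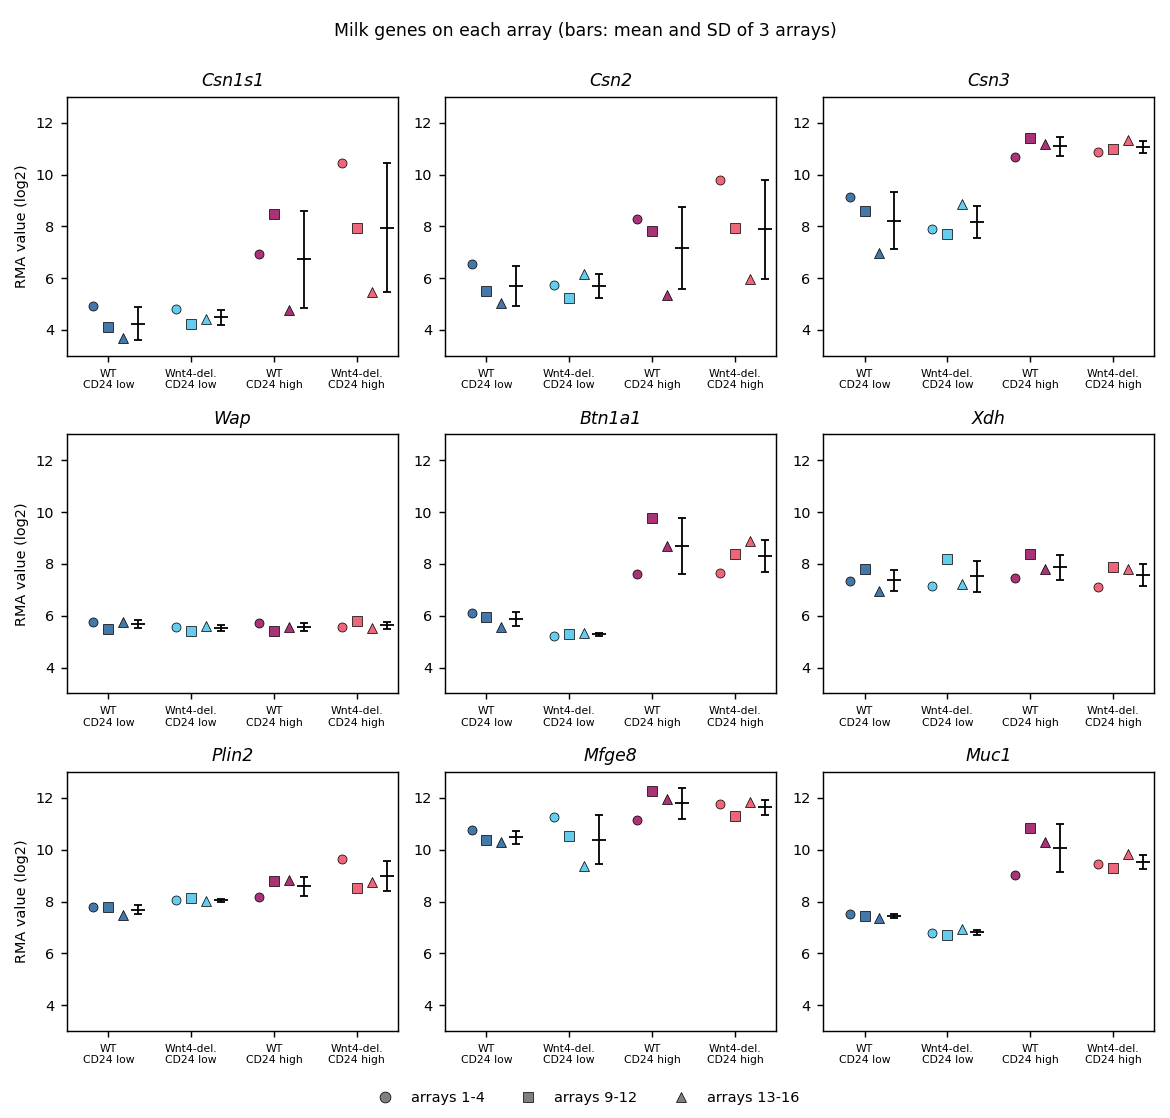
Log2 expression (vertical axis) of each of the 9 measured genes on every array, by group (horizontal axis), with 1 symbol per array and its shape giving the title-number set; bars are the mean and SD of 3 arrays. Csn3, Btn1a1, Muc1 and, by a narrow margin, Plin2 separate the fractions on every array. Csn1s1 and Csn2 spread widely within CD24 high cells, and Wap is level.

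Among the caseins, Csn3 differed most evenly. On WT arrays it read 9.12, 8.58 and 6.98 in CD24 low and 10.67, 11.42 and 11.17 in CD24 high cells. On Wnt4-deleted arrays it read 7.91, 7.70 and 8.88 in CD24 low and 10.88, 10.99 and 11.32 in CD24 high cells. Every CD24 high array lay above every CD24 low array, and the 6 CD24 high values lay within 0.75 of each other while the CD24 low values spanned 2.14. The difference was 2.86 in WT (SE 0.48, adjusted p = 0.00178), or 7.27-fold, and 2.91 in Wnt4-deleted cells (SE 0.48, adjusted p = 0.00156).

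Csn1s1, the gene of alpha-s1-casein, stood far less evenly. On WT arrays it read 4.93, 4.11 and 3.70 in CD24 low and 6.93, 8.47 and 4.77 in CD24 high cells. On Wnt4-deleted arrays it read 4.80, 4.22 and 4.43 in CD24 low and 10.45, 7.92 and 5.47 in CD24 high cells. Array 4 was the highest and array 14 the lowest of the CD24 high arrays, 5.67 apart, and array 14 fell below CD24 low array 1, so the WT fractions overlapped while the Wnt4-deleted ones did not. The difference was 2.48 in WT (SE 1.11, adjusted p = 0.18) and 3.47 in Wnt4-deleted cells (SE 1.11, adjusted p = 0.0556), neither of which passed the test. With the title-number sets as a replicate block, which pair the Wnt4-deleted fractions, the latter passed (adjusted p = 0.0176). The Wnt4-deleted call was gained without array 16 (4.70, adjusted p = 0.0108), and without array 4 the difference there was 2.21. It was also gained without array 10 or 14 (adjusted p = 0.0477 and 0.0395). Those 2 are WT arrays, so the difference stayed 3.47 and only the estimate of the spread changed. The CD24 low values lay below or within the 95th percentiles of olfactory receptor genes, so the differences may understate the change.

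Csn2, the gene of beta-casein, followed a like course. It read 6.56, 5.52 and 5.03 on WT CD24 low and 8.30, 7.83 and 5.35 on WT CD24 high arrays. It read 5.73, 5.23 and 6.15 on Wnt4-deleted CD24 low and 9.78, 7.92 and 5.95 on Wnt4-deleted CD24 high arrays. Array 4 was again highest and array 14 lowest of the CD24 high arrays, and the fractions overlapped in both genotypes. The difference was 1.46 in WT (SE 0.92, adjusted p = 0.377) and 2.18 in Wnt4-deleted cells (SE 0.92, adjusted p = 0.147), where it was 1.23 without array 4 and 3.14 without array 16 (adjusted p = 0.0394). With the replicate block the Wnt4-deleted difference passed (adjusted p = 0.0481). The residual SD within groups was 1.59 for Csn1s1 and 1.32 for Csn2, above 99.9% and 99.8% of genes, and 0.68 for Csn3. Taken by title-number set, CD24 high minus CD24 low for Csn1s1 was 2.01, 4.35 and 1.08 in WT and 5.65, 3.70 and 1.04 in Wnt4-deleted cells, lowest in arrays 13 to 16 in both, and for Csn2 it was 0.32 and -0.21 in those arrays. Array 4, where both genes peaked, was also the array with the high proliferation mean. Array 3, at 7.69, was the highest CD24 low array for proliferation. Both genes were low on all CD24 low arrays, at 3.70 to 4.93 for Csn1s1 and 5.03 to 6.56 for Csn2. Within the CD24 high fraction the proliferation mean was 8.11 on array 4, 6.48 on array 12 and 6.33 on array 2. It was 6.21 on array 14, lower on array 16, and lowest on array 10, at 5.71. From highest to lowest, Csn1s1 ran over arrays 4, 10, 12, 2, 16 and 14. Csn2 ran over arrays 4, 2, 12, 10, 16 and 14. The part of proliferation in the casein values was not tested.

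The casein genes lie together on chromosome 5. In the RefSeq order Csn1s1, Csn2 and, past 2 pseudogenes, Csn1s2a and Csn1s2b stand at one end, and Odam and then Csn3 towards the other. Csn1s2a, a further casein gene, read 5.44, 5.20 and 4.28 on WT and 7.10, 4.56 and 4.08 on Wnt4-deleted CD24 high arrays against 3.46 to 4.32 on all CD24 low arrays. It too was highest on array 4 and varied widely, above 98.9% of genes in residual SD, and its difference did not pass (1.15, SE 0.63, adjusted p = 0.292 in WT, and 1.32, adjusted p = 0.202 in Wnt4-deleted cells). Csn1s2b read 3.56 to 4.10 and Odam, an enamel-associated gene, 2.60 to 3.11 over the 12 arrays, both under the 95th percentiles of olfactory receptor genes. Array 4, highest for Csn1s1, Csn2 and Csn1s2a, was next to lowest of the 6 for Csn3, which peaked on arrays 10 and 16.

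**Figure D2:**
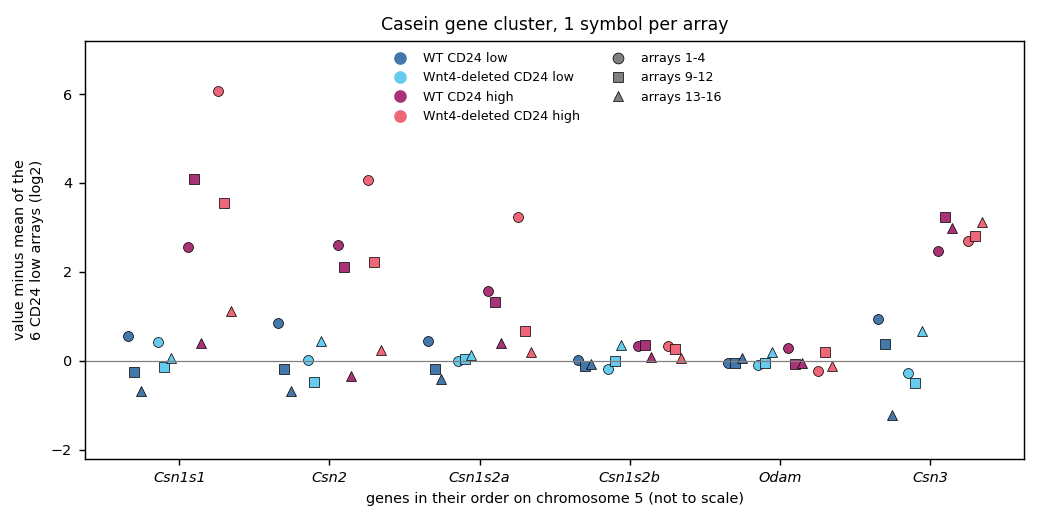
Log2 value on each array minus the gene's own mean over the 6 CD24 low arrays (vertical axis), for 6 genes in their order on chromosome 5 (horizontal axis, not to scale); colour gives the group and shape the title-number set. Csn1s1, Csn2 and Csn1s2a range widely over the CD24 high arrays with array 4 highest, Csn3 is high on all 6, and Csn1s2b and Odam stay near 0.

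The promoters of Csn1s1 and Csn2 are shown because these neighbours had the widest spread, that of Csn1s2a as the other variable casein and that of Wap as the level one. Each is the 250 bases before the annotated start in RefSeq on GRCm38.p6, read 5′ to 3′ on the gene's strand, and capitals mark TTCNNNGAA, the letters of the STAT5 consensus, which reads alike on both strands.
Csn1s1 promoter, chr5:87665958-87666207, plus strand: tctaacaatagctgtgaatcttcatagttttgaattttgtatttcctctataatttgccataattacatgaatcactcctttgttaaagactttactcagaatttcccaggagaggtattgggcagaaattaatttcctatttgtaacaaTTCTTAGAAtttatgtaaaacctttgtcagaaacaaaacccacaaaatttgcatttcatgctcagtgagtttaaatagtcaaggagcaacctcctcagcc
Csn2 promoter, chr5:87699426-87699675, minus strand: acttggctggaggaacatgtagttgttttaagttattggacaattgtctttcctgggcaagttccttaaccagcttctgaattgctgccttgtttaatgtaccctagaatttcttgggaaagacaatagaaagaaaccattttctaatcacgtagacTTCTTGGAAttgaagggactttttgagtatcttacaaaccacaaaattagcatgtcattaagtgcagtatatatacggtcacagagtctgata
Csn1s2a promoter, chr5:87774200-87774449, plus strand: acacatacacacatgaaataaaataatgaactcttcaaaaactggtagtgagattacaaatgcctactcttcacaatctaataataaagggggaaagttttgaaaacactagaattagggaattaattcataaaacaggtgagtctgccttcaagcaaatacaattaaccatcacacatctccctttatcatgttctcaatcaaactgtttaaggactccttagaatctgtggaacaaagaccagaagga
Wap promoter, chr11:6638650-6638899, minus strand: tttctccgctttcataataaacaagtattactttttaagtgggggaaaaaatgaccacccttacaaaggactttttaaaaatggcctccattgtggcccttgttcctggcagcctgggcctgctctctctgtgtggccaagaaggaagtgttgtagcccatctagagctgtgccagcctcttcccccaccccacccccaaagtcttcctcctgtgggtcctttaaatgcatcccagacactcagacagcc
The match began 100 bases before the start of Csn1s1 and 93 bases before that of Csn2. Of the 10 genes 7 had an entry, of which these 2 held the letters, while 2306 of 32851 entries (7.02%) did so in all. A match describes the letters alone.

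Wap, the main whey protein gene of rodents, did not separate the groups. It read 5.76, 5.49 and 5.77 on WT CD24 low and 5.71, 5.42 and 5.55 on WT CD24 high arrays. It read 5.55, 5.40 and 5.62 on Wnt4-deleted CD24 low and 5.55, 5.80 and 5.54 on Wnt4-deleted CD24 high arrays. All groups overlapped, and the 12 values lay within 0.40 of each other. The difference was -0.11 in WT (95% interval -0.40 to 0.18, adjusted p = 0.689) and 0.11 in Wnt4-deleted cells (SE 0.13, adjusted p = 0.67). Its residual SD, 0.14, was above that of only 19.2% of genes. The values lay just above the olfactory receptor 95th percentiles, 4.90 to 5.22, so a dim probeset and a level gene cannot be told apart here.

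Of the fat globule genes, Btn1a1 and Muc1 differed most. Btn1a1 read 6.10, 5.96 and 5.58 on WT CD24 low and 7.63, 9.76 and 8.69 on WT CD24 high arrays. On Wnt4-deleted arrays it read 5.21, 5.30 and 5.34 in CD24 low and 7.64, 8.39 and 8.87 in CD24 high cells. No CD24 low array reached any CD24 high array, although the CD24 high values spanned 2.14. The difference was 2.81 in WT (SE 0.45, adjusted p = 0.00129), or 7.03-fold, and 3.02 in Wnt4-deleted cells (SE 0.45, adjusted p = 0.00079). Muc1 read 7.52, 7.44 and 7.36 on WT CD24 low and 9.04, 10.85 and 10.30 on WT CD24 high arrays. On Wnt4-deleted arrays it read 6.80, 6.70 and 6.92 in CD24 low and 9.45, 9.30 and 9.83 in CD24 high cells. Here also the fractions were fully apart. The difference was 2.63 in WT (SE 0.35, adjusted p = 0.00038) and 2.72 in Wnt4-deleted cells (SE 0.35, adjusted p = 0.000292), the lowest adjusted p of the 9 genes in each. Muc1 is a general luminal mucin as well as a globule protein.

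Plin2 was higher in CD24 high cells by a smaller step. This gene encodes a lipid droplet coat protein of many cell types and read 7.78, 7.80 and 7.49 on WT CD24 low and 8.17, 8.79 and 8.82 on WT CD24 high arrays. On Wnt4-deleted arrays it read 8.04, 8.12 and 8.01 in CD24 low and 9.63, 8.54 and 8.77 in CD24 high cells, again with array 4 highest. The fractions did not overlap in either genotype, with a difference of 0.90 in WT (SE 0.26, adjusted p = 0.038), or 1.86-fold, and 0.92 in Wnt4-deleted cells (SE 0.26, adjusted p = 0.0335). These calls were close to the threshold: with only the groups compared in the fit, adjusted p was 0.0924 in Wnt4-deleted cells, and with the replicate block it was 0.0515 in WT. The WT call was lost without any 1 of arrays 1, 9, 10, 13 and 14 (0.0732 to 0.135), and the Wnt4-deleted call without any 1 of arrays 3, 4, 11, 15 and 16 (0.0555 to 0.085). Adipocyte markers averaged 4.89 to 5.45 on CD24 high and 5.17 to 6.01 on CD24 low arrays. Among them Adipoq read only 3.35 to 4.07 over the 12 arrays, and Fabp4 ranged from 6.60 to 11.93. The part of adipocytes in the Plin2 values was not tested.

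Mfge8 did not pass, although its fractions lay apart. It read 10.77, 10.37 and 10.28 on WT CD24 low and 11.13, 12.27 and 11.96 on WT CD24 high arrays. On Wnt4-deleted arrays it read 11.26, 10.52 and 9.37 in CD24 low and 11.77, 11.30 and 11.83 in CD24 high cells. In both genotypes the fractions were apart, in the second by a margin of under 0.1 between arrays 3 and 12. The difference, 1.31 in WT (SE 0.42, adjusted p = 0.0575), or 2.48-fold, and 1.25 in Wnt4-deleted cells (SE 0.42, adjusted p = 0.068), missed the threshold. It passed in WT without array 2 (1.64, adjusted p = 0.0305). Without array 3 or 15 it also passed there (adjusted p = 0.0229 and 0.0138). Those 2 are Wnt4-deleted arrays, so the WT difference stayed 1.31 and only the estimate of the spread changed. In Wnt4-deleted cells it passed without array 3 (1.69, adjusted p = 0.0115).

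Xdh, the butyrophilin partner, did not pass and the fractions overlapped. It read 7.34, 7.79 and 6.96 on WT CD24 low and 7.44, 8.40 and 7.79 on WT CD24 high arrays, and 7.15, 8.20 and 7.21 on Wnt4-deleted CD24 low and 7.10, 7.88 and 7.79 on Wnt4-deleted CD24 high arrays. The difference was 0.52 in WT (95% interval -0.25 to 1.28, adjusted p = 0.413) and 0.07 in Wnt4-deleted cells (SE 0.35, adjusted p = 0.936). In every group its highest value fell in the title-number set of arrays 9 to 12. Of these, CD24 low arrays 9 and 11 had the high fibroblast means, while CD24 high arrays 10 and 12 had fibroblast means of 6.16 and 5.85. The part of fibroblasts or of the set in these values was not tested.

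**Figure D3:**
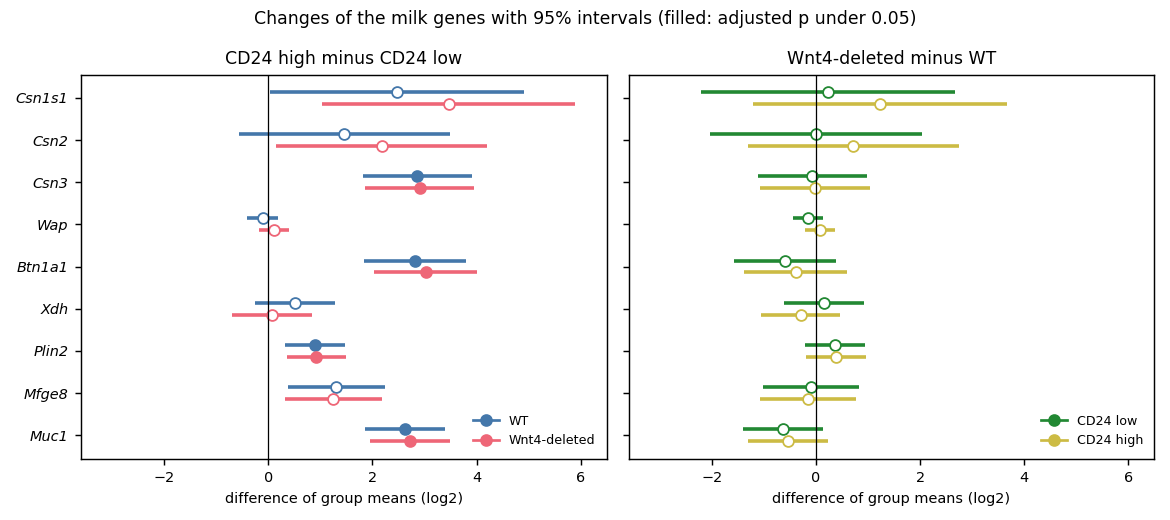
Log2 difference with its 95% interval (horizontal axis) for each of the 9 genes (vertical axis) in the comparisons of fractions and of genotypes. The intervals of Csn3, Btn1a1, Plin2 and Muc1 between fractions lie above 0 in both genotypes, as do those of Csn1s1 and Mfge8 and, in Wnt4-deleted cells, Csn2, which missed the adjusted threshold, and every interval between genotypes includes 0.

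The comparison of genotypes asked whether Wnt4 deletion altered these genes in either fraction. None of the 9 passed in CD24 low cells (0.00502% of all genes did) or in CD24 high cells (0.00502%), and none had an unadjusted limma p under 0.05 in either, where 3.06% and 1.99% of all genes did. All adjusted p were 1. The median difference, Wnt4-deleted minus WT, was -0.07 for the CD24 low and -0.02 for the CD24 high fraction, beside -0.02 and -0.03 over all genes.

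In CD24 low cells the arrays did not overlap for Plin2, higher by 0.36 in Wnt4-deleted cells (SE 0.26), nor for Btn1a1 and Muc1, at -0.60 (SE 0.45) and -0.63 (SE 0.35), against 2.65% of all genes higher and 4.12% lower without overlap. In CD24 high cells no gene of the 9 was without overlap (7% of all genes were). The widest intervals belonged to the variable caseins: Csn1s1 differed by 1.22 in CD24 high cells (95% interval -1.22 to 3.66) and Csn2 by 0.72 (-1.31 to 2.75), and neither interval excludes 0. Without array 4 the Csn1s1 difference was -0.03. Of Csn1s1, Csn2 and Csn3, the last had the narrowest interval, with -0.02 in CD24 high cells (-1.07 to 1.03). Wap differed by 0.07 (-0.22 to 0.36) there and by -0.15 (-0.44 to 0.14) in CD24 low cells.

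The genotype effect was also compared between fractions, as CD24 low minus CD24 high. None of the 9 passed (0% of all genes), with differences of -0.99 for Csn1s1 (SE 1.57), -0.72 for Csn2 (SE 1.31) and -0.22 to 0.44 for the others, and none had an unadjusted limma p under 0.05, where 1.37% of all genes did.

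The 36 pairs of milk genes were compared across the 6 CD24 high arrays. Csn1s1 and Csn2 had a Pearson r of 0.94 (exact permutation p = 0.0125, adjusted p = 0.109 over 36 pairs) and a Spearman rho of 0.77 (exact permutation p = 0.103, adjusted p = 0.326), and r was 0.77 without arrays 4 and 14. Csn3 and Btn1a1 stood in the same order on all 6 arrays, with r 0.94 (exact permutation p = 0.00694, adjusted p = 0.109), rho 1 (exact permutation p = 0.00278, the smallest that 6 arrays allow in a two-sided test, adjusted p = 0.05) and r 0.92 without arrays 2 and 10. So did Mfge8 and Muc1, with r 0.93 (exact permutation p = 0.00694, adjusted p = 0.109), rho 1 (exact permutation p = 0.00278, adjusted p = 0.05) and r 0.97 without arrays 2 and 12. Csn1s1 and Csn3 had r -0.27 (exact permutation p = 0.594, adjusted p = 0.783) and rho -0.14 (exact permutation p = 0.803, adjusted p = 0.933), and r 0.04 without arrays 4 and 14. Of the 36 pairs 8 had an unadjusted p under 0.05 for r and 0 an adjusted p under 0.05. Each title-number set holds only 2 CD24 high arrays, whose differences, Wnt4-deleted minus WT, were 3.51, -0.55 and 0.70 for Csn1s1 and 1.47, 0.09 and 0.60 for Csn2, too few for a correlation within sets. The mean of 10 luminal progenitor and alveolar markers, none of them one of the 9 genes, ran over these arrays from 9.45 on array 2 and 9.49 on array 12 through 10.01 on array 4, 10.02 on array 16 and 10.38 on array 14 to 10.58 on array 10. This is the order of Muc1 and of Mfge8, and Csn3 and Btn1a1 were likewise lowest on array 2 and highest on array 10. The part of the cell mix in these relations was not tested.

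Over all 12 arrays, the genes most like each milk gene are given as a description, since the points share fractions and title-number sets. Csn2 was nearest to Csn1s1 (r 0.95), Csn1s2a (0.93) and Cftr (0.87), a chloride channel. Csn3 was nearest to Plet1 (0.98), the lactoferrin gene Ltf (0.97) and Scnn1a (0.97), a sodium channel subunit. Btn1a1 was nearest to Atp6v1b1, Clic6 and Muc1 (each 0.99), and Mfge8 to Dcaf15 (0.96), Esrp1 (0.95) and Pacs1 (0.95). Wap was nearest to Lce1e (0.90), Doc2a (0.87) and Pkd2l1 (0.87), none of them a milk gene by name.

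Other genes of milk production were read from lists, in WT and then in Wnt4-deleted cells. Over all genes 7.93% were called higher and 8.21% lower in WT, and 8.23% and 8.22% in Wnt4-deleted cells, and a list's count is to be read against these shares. Of 12 other milk protein genes 2 rose in both and none fell (median 0.50 and 0.37): Ltf by 4.20 and 4.30, and the whey acidic protein-like gene Wfdc18 by 2.77 and 3.12. Of 12 other genes of the globule membrane and droplet, 5 rose and 1 fell in WT, and 6 rose in Wnt4-deleted cells (median 0.33 and 0.40), the 1 that fell being near the share over all genes. The mucin gene Muc4 (3.12 and 2.66), the mucin gene Muc15 (2.81 and 2.40) and the clusterin gene Clu (1.83 and 1.56) led, and Fabp3, a fatty acid carrier, had -0.85 in WT.

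**Figure D4:**
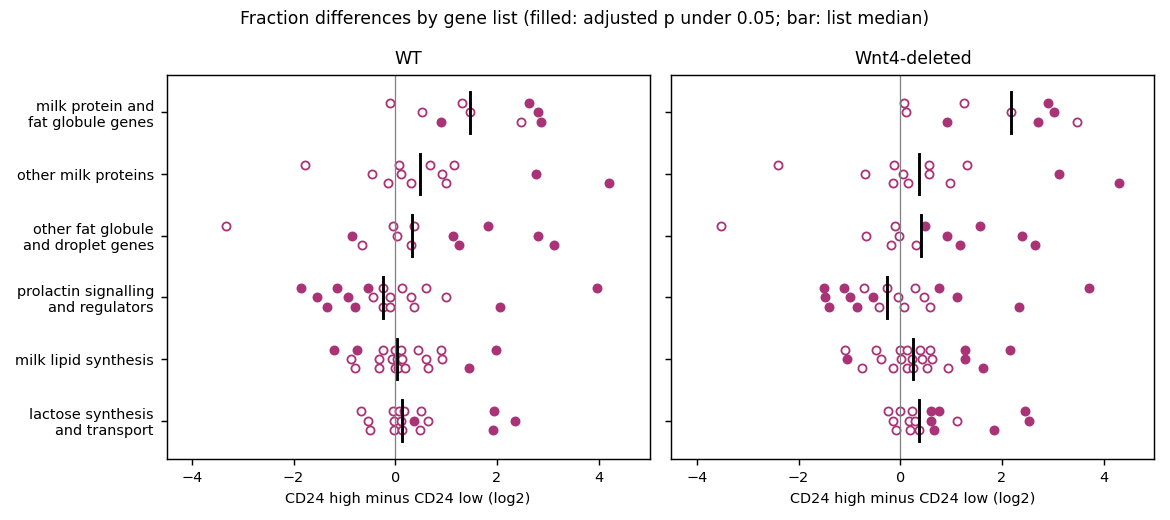
Log2 difference, CD24 high minus CD24 low (horizontal axis), of every measured gene of the 9 milk genes and of each related list (vertical axis), with 1 panel per genotype, filled symbols for adjusted p under 0.05 and bars for list medians. Called genes lie above 0 in the milk protein and transport lists, and on both sides of 0 among regulators and lipid synthesis genes.

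Among 19 genes of prolactin signalling and milk gene regulation, 2 rose and 7 fell in WT and 4 rose and 7 fell in Wnt4-deleted cells (median -0.24 and -0.26). The 2 that rose in WT were near the 7.93% of all genes called higher, and the 7 that fell were a larger share than the 8.21% called lower. Elf5, a transcription factor of alveolar cells, was higher by 3.97 and 3.72, and Erbb4, a neuregulin receptor, by 2.05 and 2.34. On CD24 low arrays Erbb4 read 4.34 to 4.88, under the olfactory receptor 95th percentiles, so its differences may understate the change. The cytokine signalling inhibitors Socs3 (-1.85 and -1.50) and Cish (-1.54 and -0.98) and the transcription factor Cebpb (-1.35 and -1.48) were lower.

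Of 22 milk lipid synthesis genes 2 rose and 2 fell in WT and 4 rose and 1 fell in Wnt4-deleted cells (median 0.04 and 0.24). In WT these counts were near the shares over all genes, 7.93% higher and 8.21% lower. The desaturase gene Scd1 (1.99 and 2.15) and Me1 (1.44 and 1.27), which supplies NADPH, rose in both, and the fatty acid elongase gene Elovl5 fell in both (-1.21 and -1.04). Of 17 genes of lactose synthesis and mammary transport 4 rose in WT and 7 in Wnt4-deleted cells, and none fell (median 0.14 and 0.37), where 7.93% and 8.23% of all genes were called higher. Among them were the water channel gene Aqp5 (2.35 and 2.53), the sodium-glucose carrier gene Slc5a1 (1.95 and 1.85) and the chloride cotransporter gene Slc12a2 (1.92 and 2.45). Slc5a1 read 4.07 to 4.54 on CD24 low arrays, under those 95th percentiles, so its differences too may understate the change. Over these lists, as over the 9 milk genes, no gene passed the test between genotypes.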

How the data were processed

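Total RNA of the sorted cells was amplified and hybridised to 12 arrays (Nugen Ovation Pico WTA V2 and biotin module, per the labels). The deposited values are log2 expression per probeset, made by the authors with RMA in Affymetrix Expression Console 1.1.2800 per the labels; RMA corrects background and quantile-normalises arrays, so a change shared by all genes would be lost. Further settings and the genome build were not given in the sources used here. Array medians were 5.64 to 5.82, values 1.62 to 13.80, and arrays of a group correlated at 0.962 to 0.988. No pair of arrays held identical values. The number of arrays limits the precision.

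Probesets were named from the platform annotation: 21789 of 35556 listed 1 gene symbol, 1621 several and 12146 none, and only the first were used. For the 999 genes with over 1 probeset, the probeset with the highest mean was kept, giving 19938 genes. limma 3.58.1 in R 4.3.3 was fitted to 4 group means over all 12 arrays with eBayes and no covariate, which leaves 8 residual degrees of freedom, and p-values were adjusted by Benjamini-Hochberg over all genes, with a threshold of 0.05. The fit was tested on simulated data. Deviations from group means, correlated within title-number sets, were 0.451, 0.53 and 0.181 between the Wnt4-deleted fractions and 0.696, 0.517 and 0.372 between the CD24 low genotypes, so the numbers were taken to pair these groups, from the data and not from the labels. Exact permutation tests over the arrays were two-sided. The genes, their lists and the tests were chosen with earlier results of these data known, and the lists support nothing on their own. All 10 milk genes were to be named, and of each list up to 3 highest and 3 lowest changes among those that passed, in a comparison. Tried besides were leaving out genes below the 40th percentile of level, averaging probesets, other scalings, an intensity trend, array weights, only the groups compared, title-number sets as a block, other thresholds, and leaving out arrays or sets. Sequences came from RefSeq on GRCm38.p6.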

Additional observations from a re-analysis of the deposited data

How the results depend on the processing

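Between fractions, 4 milk genes were called in either genotype. The count was 3 to 5 without any 1 array and 2 to 5 without any 1 title-number set, with 2 in WT without arrays 9 to 12 or 13 to 16 and 2 in Wnt4-deleted cells without arrays 9 to 12. Over the other alternatives, thresholds included, it was 3 to 5 in WT and 3 to 6 in Wnt4-deleted cells. Between genotypes, and for the difference of effects, it was 0 under every alternative, where at most 2 of all genes were called. Between fractions, 3218 of all genes were called in WT and 3278 in Wnt4-deleted cells in the main fit. These counts were 1374 and 1405 without arrays 9 to 12, and 1339 and 1350 without arrays 13 to 16. Without arrays 1 to 4 they were 3395 and 3588. Without any 1 array they ran from 2282 to 3526 in WT and from 2156 to 3628 in Wnt4-deleted cells. With array weights they were 5215 and 4143. Muc1 was called between fractions under all alternatives run in both genotypes, and Btn1a1 in Wnt4-deleted cells. Csn3 lost its call without arrays 9 to 12 (adjusted p = 0.0528 in WT and 0.0625 in Wnt4-deleted cells), and Btn1a1 in WT without arrays 13 to 16 (0.055). Adjusted p for Plin2 ranged from 0.00152 to 0.414 in WT and from 0.0178 to 0.196 in Wnt4-deleted cells. Csn1s1 passed in Wnt4-deleted cells without array 16 (4.70, adjusted p = 0.0108), as did Csn2 (3.14, adjusted p = 0.0394), and Mfge8 passed in WT with only the groups compared (0.0243). The causes were not tested.

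The labels do not say what title numbers mark. Deviations from group means of arrays of 1 set correlated from -0.143 to 0.696. Wnt4-deleted CD24 low arrays correlated over 0.1 in all 3 sets with WT CD24 low and with Wnt4-deleted CD24 high arrays, and the other group pairs did not. With the sets as a replicate block, 3 milk genes were called in WT (Plin2 lost its call, adjusted p = 0.0515) and 6 in Wnt4-deleted cells, where Csn1s1 (0.0176) and Csn2 (0.0481) joined. The block changed no other call of a milk gene. Over all genes, 3624 were called in WT and 3747 in Wnt4-deleted cells with the block, against 3218 and 3278 in the main fit.

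With array weights, Wnt4-deleted minus WT was 0.14 for Csn3 in CD24 low cells, and -0.42 for Csn1s1 and -0.18 for Csn2 in CD24 high cells, and the difference of effects was 0.75 for Csn1s1, 0.30 for Csn2, 0.17 for Csn3, 0.32 for Plin2 and 0.15 for Muc1. With a second quantile normalisation it was 0.05 for Csn3 and 0.04 for Plin2, and Csn2 differed by -0.0011 between genotypes in CD24 low cells. With median centring Csn3 differed by 0.0044 between genotypes in CD24 high cells. Leaving out 1 array or 1 set, the fractions of Wnt4-deleted cells differed by -0.04 to 0.20 for Wap and -0.18 to 0.41 for Xdh. The genotypes then differed in CD24 low cells by -0.04 to 0.58 for Csn1s1, -0.56 to 0.43 for Csn2, -1.05 to 0.51 for Csn3, -0.18 to 0.37 for Xdh and -0.53 to 0.41 for Mfge8. In CD24 high cells they differed by -0.03 to 2.46 for Csn1s1, -0.23 to 1.69 for Csn2, -0.23 to 0.18 for Csn3, -0.08 to 0.18 for Wap, -0.93 to 0.14 for Btn1a1, -0.15 to 0.71 for Plin2 and -0.55 to 0.25 for Mfge8. The difference of effects was -2.22 to 0.34 for Csn1s1, -1.69 to 0.23 for Csn2, -0.94 to 0.64 for Csn3, -0.74 to 0.33 for Btn1a1, -0.32 to 0.57 for Plin2, -0.47 to 0.57 for Mfge8 and -0.54 to 0.42 for Muc1. Of 1026 values of single genes under alternatives, 901 kept direction and side of the threshold, 84 changed sign, 22 gained a call and 19 lost one.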

Other observations

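Glycam1, a milk mucin gene chosen here after its values were seen, stood highest outside the CD24 high cells: it read 11.14 on Wnt4-deleted CD24 low array 15 and 7.01 and 7.22 on WT CD24 low arrays 9 and 13, and 4.30 to 5.27 on the others. The endothelial marker mean was 9.06, 8.18 and 8.93 on arrays 15, 9 and 13. It was 9.41 on array 11, and 6.56 and 6.44 on arrays 1 and 3. The part of endothelial or other cells in the Glycam1 values was not tested. The genes whose deviations from group means were most like those of Csn2 over the 12 arrays were Olfr122 (r 0.95), P3h2 (0.95) and Olfr615 (0.94), and those most like Wap were Chst2 (0.95), Mycbpap (0.94) and Lce1e (0.92). They are the nearest of 18002 genes searched, given as a description with no p. Olfr122 and Olfr615 belong to the olfactory receptor genes used here as a guide to dimness.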
